A study of Bos taurus with 10 samples.

Results

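Complement and coagulation factors are plasma proteins that the liver releases into blood, and their transcripts were followed in the liver of dairy cows given conjugated linoleic acid (CLA) or a control fat. The set holds 38 genes, chosen by name: 17 of complement and 21 of coagulation. A gene was read through the probe sets that the platform annotation gives to its symbol alone, and the probe set of highest mean over the 10 arrays stood for the gene. In this way 34 of the 38 were measured, all 17 of the complement arm and 17 of the 21 of the coagulation arm, out of 9155 genes on the array. F7, F11, KLKB1 and FGA had no probe set of their own by this rule. The 34 genes had 48 probe sets, since 12 of them had more than 1.

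All samples came from liver biopsies of primiparous and multiparous Holstein cows, taken in week 5 of lactation. Of 40 cows, 20 received a rumen-protected control fat and 20 a rumen-protected fat with CLA, the fat making up 27.3% of an additional concentrate. Each cow got 630 g of its dry matter daily, starting in week 3 before calving and ending in week 14 after it. All cows also ate the same partial mixed ration. RNA of 4 cows was pooled for each array, and there were 5 control pools and 5 CLA pools. The question was how CLA in the diet bears on the liver transcriptome at this stage. The p-values of group differences rest on the spread between pools, not between single cows.

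Complement is a cascade of plasma proteases and binding proteins that marks microbes and damaged cells and can pierce their membranes. Its classical branch starts with the C1 complex, its alternative branch amplifies C3 cleavage, and both end in a terminal complex that forms a membrane pore. Coagulation is a second protease cascade, which ends when thrombin cuts fibrinogen into fibrin, while serpins, the protein C system and plasmin hold the clot in check. Hepatocytes make most of these proteins, and several of them, fibrinogen and C3 among them, are acute phase proteins whose synthesis follows inflammatory cytokines.

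The deposited values are log2 signals normalized by the authors. The array medians did not overlap between the groups, with 5.83 to 5.85 in the control pools and 5.79 to 5.82 in the CLA pools (two-sided exact permutation p = 0.00794, the smallest that 5 against 5 pools can give). Setting the medians equal adds 0.031 to the difference of every gene. No 2 arrays correlated below 0.988 over their probe sets. The liver label fitted its markers: all 10 hepatocyte markers were measured, and their mean level was 13.02 ± 0.06 in the control pools and 13.05 ± 0.06 in the CLA pools (SD, n = 5 each). Of these markers 8 were higher and 2 lower in the CLA pools (median difference 0.025), none with an unadjusted limma p under 0.05. For 1 of them, TF, the groups did not overlap, with 14.60 to 14.67 in the control pools and 14.68 to 14.72 in the CLA pools. All 7 markers of T and NK cells were lower in the CLA pools (median difference -0.19; mean level 6.51 to 6.94 against 6.36 to 6.68), as were all 5 measured markers of Kupffer cells and macrophages (median -0.08; 8.37 to 8.72 against 8.22 to 8.60), and none of these 12 had an unadjusted limma p under 0.05. Markers of stellate cells and fibroblasts were higher for 6 of 8 genes, LRAT and LUM with an unadjusted limma p under 0.05 (median 0.09; 6.54 to 6.97 against 6.63 to 7.11). All 5 erythroid markers were lower (median -0.082; 4.13 to 4.38 against 4.04 to 4.30). Among them HBA, a haemoglobin chain of low signal here, had an unadjusted limma p under 0.05. It read 3.90 to 4.24 in the control pools and 3.69 to 3.86 in the CLA pools, which did not overlap. HBB, the brightest of the erythroid markers (control mean 6.04), differed by -0.06 ± 0.203 SE, and its groups overlapped. Of all genes 8.5% had an unadjusted limma p under 0.05, and 2.17% had groups that did not overlap. In whole liver, fewer cells of a type and less RNA per cell cannot be told apart, and the part of these cells in the values below was not tested.

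No complement or coagulation gene passed the test between CLA and control pools. Of the 34 genes, 0 had a Benjamini-Hochberg adjusted p under 0.05 in limma, as had 0.0% of all 9155 genes, and the lowest adjusted p was 0.568, that of F13B. At an unadjusted limma p under 0.05 the count was also 0 of 34, while 8.5% of all genes fell under that mark. With each gene's own variance in place of limma's moderated variance it was 2 of 34, F13B and SERPING1, against 9.24% of all genes. The differences of the 34 genes ran from -0.17 for C2 to 0.21 for FGB on the log2 scale, CLA minus control, which is 1.13-fold lower and 1.15-fold higher. Over the complement arm 8 genes stood higher in the CLA pools and 9 stood lower, and they had a median of -0.01, the same as the median of -0.01 over all genes. Over the coagulation arm 13 stood higher and 4 stood lower, around a median of 0.062. Among all genes 46.0% were higher, and among the 10 hepatocyte markers 8 were. After quantile normalization the median was -0.015 for complement and 0.033 for coagulation, beside -0.013 over all genes, and 11 coagulation genes were higher and 6 lower. After cyclic loess normalization the medians were -0.053 and 0.030, beside -0.008 over all genes, and the coagulation counts were 10 and 7. With array medians subtracted they were 0.021 and 0.093, beside 0.021 over all genes, with counts of 15 and 2. Averaging all probe sets of a gene left 10 coagulation genes higher and 7 lower, and without control pool 4 there were 16 and 1. The complement median was 0.007 when control pool 1 was left out, and 4 of the 17 complement genes were higher when control pool 5 was left out. Leaving out CLA pool 1 gave a coagulation median of 0.040, and leaving out CLA pool 2 gave 0.105.

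Pool by pool the arms moved little. Taking each gene against its mean in the control pools, the median complement gene stood at 0.052, -0.018, 0.042, 0.048 and -0.116 in control pools 1 to 5 and at 0.040, -0.058, -0.022, 0.046 and -0.022 in CLA pools 1 to 5. Control pool 5 was lowest and CLA pool 2 next lowest, and the groups overlapped. For the coagulation arm the medians were 0.040, -0.092, 0.054, 0.030 and -0.028 in the control pools and 0.136, -0.002, 0.058, 0.040 and 0.088 in the CLA pools. CLA pools 1, 3 and 5 stood above every control pool there, and CLA pools 2 and 4 did not. CLA pool 3, at 0.058, was above control pool 3, at 0.054, by less than the last decimal of the deposited values.

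**Figure D1:**
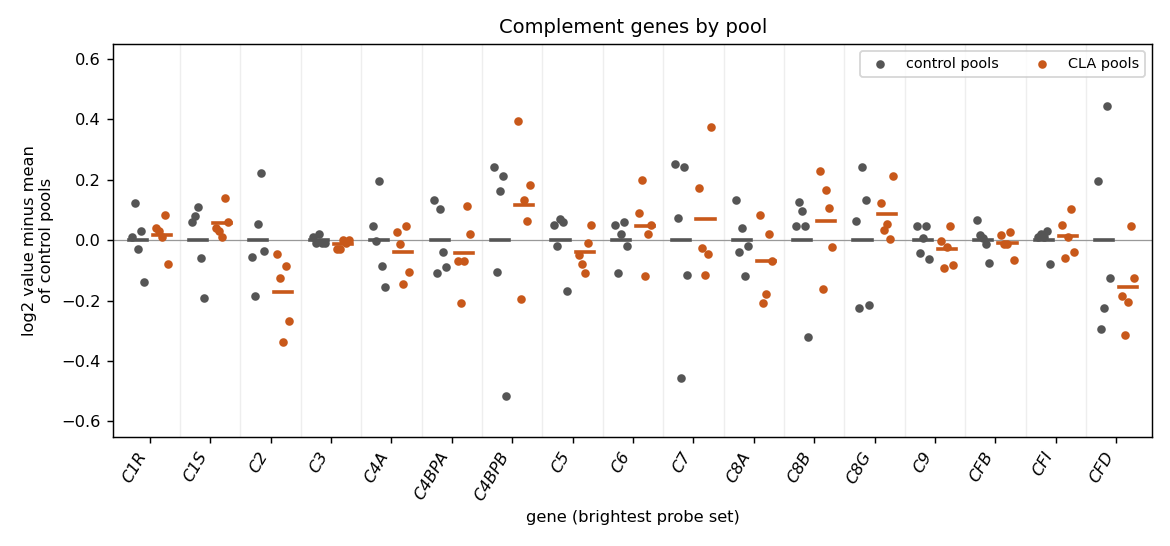
Values of the 17 complement genes in each pool, as the log2 value of the brightest probe set minus the gene's mean over the control pools (grey: 5 control pools; orange: 5 CLA pools; bars: group means). The groups overlap for every gene, and C3, CFB, C9 and CFI vary least between pools.

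The classical pathway starts with the C1 proteases C1R and C1S, whose transcripts differed by less than their SE. C1R differed by 0.02 ± 0.068 SE and C1S by 0.06 ± 0.073 SE, and C4A, a form of the fourth component that C1S cuts, by -0.04 ± 0.079 SE. C2, the protease that joins cleaved C4 to form the C3 convertase, had the largest downward difference of all 34 genes. Its values were 9.19, 9.06, 9.30, 9.47 and 9.21 in control pools 1 to 5 and 9.20, 9.12, 8.91, 9.16 and 8.98 in CLA pools 1 to 5. All 5 CLA pools lay below the control mean, but control pool 2 lay below 3 of them. The difference was -0.17 ± 0.089 SE (limma, Benjamini-Hochberg adjusted p = 0.602), and the second C2 probe set differed by -0.12 ± 0.166 SE. C2 came under an unadjusted limma p of 0.05 without control pool 2 (difference -0.22), after quantile normalization (-0.21) and after cyclic loess normalization (-0.20).

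In the alternative pathway C3, the protein on which all complement branches meet, gave the most even values of the set. It read 14.97, 14.95, 14.98, 14.95 and 14.95 in the control pools and 14.93, 14.93, 14.96, 14.95 and 14.96 in the CLA pools. These were the highest values of any probe set on 9 of the arrays, and in CLA pool 2 C3 lay 0.01 below the highest. A difference of -0.01 ± 0.055 SE was fitted, but whether the signal still followed the amount of RNA at this upper end was not tested. The second C3 set, with a mean of 14.40 in both groups, differed by 0.00 ± 0.057 SE. CFB, the protease of the alternative C3 convertase, differed by -0.01 ± 0.059 SE.

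CFD, or adipsin, cuts factor B and is known as a product of fat cells. Its control pools read 11.70, 11.21, 11.28, 11.95 and 11.38 and its CLA pools 11.32, 11.19, 11.30, 11.55 and 11.38. Control pools 1 and 4 were the highest, and the other 3 control pools lay among the CLA pools. Without control pool 4 the difference was -0.045. Over all pools it was -0.16 ± 0.134 SE (limma, Benjamini-Hochberg adjusted p = 0.779). Of 5 adipocyte markers 4 were measured, 1 higher and 3 lower in the CLA pools, with a mean level of 4.33 to 4.62 in the control pools and 4.30 to 5.19 in the CLA pools. The value of 5.19, in CLA pool 4, came from FABP4 alone, which read 8.39 there and 4.98 to 5.68 in the other pools, while CIDEC was at its lowest in that pool (4.96). Their part in the CFD values was not tested.

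The 7 genes of the terminal pathway, whose products build the membrane pore, differed by -0.07 to 0.09, with 4 higher and 3 lower and a median of 0.048. C5 differed by -0.04 ± 0.069 SE, C6 by 0.05 ± 0.073 SE and C9, the pore-forming unit, by -0.03 ± 0.061 SE. The subunits of C8 did not share a direction: C8A differed by -0.07 ± 0.078 SE, C8B by 0.06 ± 0.103 SE and C8G by 0.09 ± 0.099 SE. C8B read 11.80, 11.88, 11.85, 11.80 and 11.43 in the control pools and 11.98, 11.59, 11.92, 11.86 and 11.73 in the CLA pools. Control pool 5 stood below every other pool. Without it the C8B difference was -0.02.

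C7, which anchors the growing complex to the membrane, had one of the widest spreads of the complement arm. It gave 9.20, 9.02, 8.49, 9.19 and 8.83 in the control pools and 9.12, 8.92, 8.83, 8.90 and 9.32 in the CLA pools. Control pool 3 was the lowest and CLA pool 5 the highest. The difference of 0.07 ± 0.141 SE (limma, Benjamini-Hochberg adjusted p = 0.919) turned to -0.04 without control pool 3 and to -0.003 without CLA pool 5. Fibroblasts are also known to make C7. The mean level of the stellate cell and fibroblast markers was 6.97, 6.83, 6.54, 6.77 and 6.69 in the control pools. In the CLA pools it was 6.67, 6.63, 6.95, 6.94 and 7.11. Control pool 3 was lowest and CLA pool 5 highest for the markers too, and the other pools did not have the same order in both. The part of these cells in the C7 values was not tested.

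Among the regulators, C4BPA, the main chain of the C4b-binding protein, differed by -0.04 ± 0.080 SE. C4BPB, the chain that ties this protein to protein S, varied more than any other member between the control pools (SD 0.320, n = 5). Its values were 10.13, 9.78, 10.05, 10.10 and 9.37 in the control pools and 10.28, 9.69, 10.02, 9.95 and 10.07 in the CLA pools. The lowest was again control pool 5. The difference of 0.12 ± 0.150 SE (limma, Benjamini-Hochberg adjusted p = 0.867) was -0.01 without that pool. CFI, the protease that cuts C3b and C4b, read 13.31, 13.32, 13.31, 13.33 and 13.22 in the control pools and 13.35, 13.24, 13.31, 13.40 and 13.26 in the CLA pools. Control pool 5 was the lowest here too. The fitted difference was 0.01 ± 0.061 SE.

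**Figure D2:**
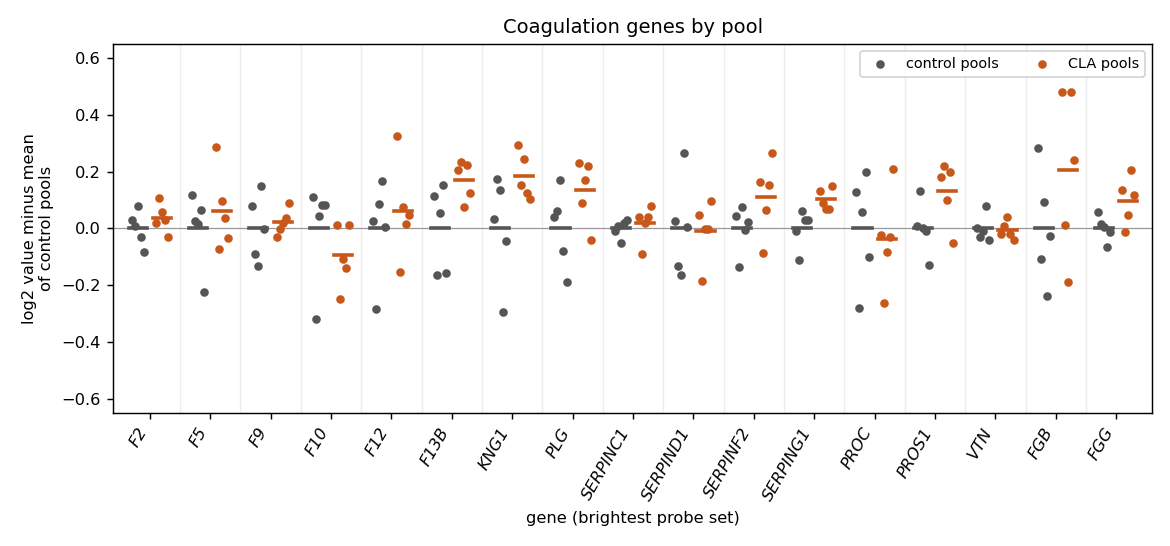
Values of the 17 measured coagulation genes in each pool, as the log2 value of the brightest probe set minus the gene's mean over the control pools (grey: 5 control pools; orange: 5 CLA pools; bars: group means). All CLA pools of SERPING1 lie above its control pools, and the groups overlap for the other 16 genes.

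All 3 measured genes of fibrin formation were higher in the CLA pools (median 0.172), and none passed the test. FGB, the beta chain of fibrinogen, had the largest upward difference of the 34 genes. It read 11.18, 10.79, 10.99, 10.66 and 10.87 in the control pools and 11.38, 10.91, 10.71, 11.38 and 11.14 in the CLA pools. CLA pools 1 and 4 were the highest of all 10, while CLA pool 3 lay under 4 of the control pools. The difference was 0.21 ± 0.140 SE (limma, Benjamini-Hochberg adjusted p = 0.707), or 0.30 without CLA pool 3, where the unadjusted limma p fell under 0.05. The second FGB probe set differed by 0.11 ± 0.107 SE from a control mean of 3.70. FGG, the gamma chain, gave 14.21, 14.17, 14.16, 14.09 and 14.14 in the control pools and 14.29, 14.14, 14.20, 14.36 and 14.27 in the CLA pools. As for FGB, CLA pool 4 was high, and in FGG CLA pools 1, 4 and 5 exceeded every control pool. FGG differed by 0.10 ± 0.064 SE (limma, Benjamini-Hochberg adjusted p = 0.700).

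F13B, the carrier subunit of the factor XIII that cross-links fibrin, had the lowest p of the 34 genes. Its control pools read 11.38, 11.10, 11.32, 11.42 and 11.11 and its CLA pools 11.47, 11.50, 11.34, 11.49 and 11.39. All 5 CLA pools lay above the control mean, control pools 1 and 4 lay within the range of the CLA pools, and the other 3 control pools lay below it. The difference was 0.17 ± 0.081 SE, or 1.13-fold (limma, Benjamini-Hochberg adjusted p = 0.568). F13B came under an unadjusted limma p of 0.05 when control pool 1 (difference 0.20), control pool 4 (0.21) or CLA pool 3 (0.20) was left out. F13A1, the catalytic subunit, which is made by macrophages and platelets, differed by 0.22 ± 0.154 SE (limma, Benjamini-Hochberg adjusted p = 0.721), and its other probe sets differed by 0.06 ± 0.153 SE and -0.20 ± 0.133 SE.

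KNG1 encodes kininogen, the cofactor of the contact system from which bradykinin is cut. It read 13.18, 13.32, 13.28, 12.85 and 13.10 in the control pools and 13.44, 13.30, 13.39, 13.27 and 13.25 in the CLA pools. Control pool 4 was the lowest, and control pools 2 and 3 lay within the range of the CLA pools. The difference was 0.18 ± 0.092 SE (limma, Benjamini-Hochberg adjusted p = 0.584). A second KNG1 probe set gave 0.14 ± 0.076 SE with a correlation of only 0.16 to the first across the 10 pools. KNG1 came under an unadjusted limma p of 0.05 without control pool 2 (0.23), without control pool 3 (0.22) and as the mean of both sets (0.16). F12, the protease that starts contact activation, read 9.52, 9.21, 9.58, 9.66 and 9.50 in the control pools and 9.82, 9.34, 9.57, 9.51 and 9.54 in the CLA pools, a difference of 0.06 ± 0.103 SE. Pool 2 was the lowest in both groups, although nothing in the labels ties pools of the same number.

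Vitamin K dependent factors carry carboxylated glutamate residues that bind calcium. Of this group 5 of 6 genes were measured, and 3 were higher and 2 lower in the CLA pools (median 0.022). Prothrombin (F2) differed by 0.04 ± 0.061 SE, F9 by 0.02 ± 0.071 SE, protein C (PROC), which switches off the clotting cofactors, by -0.04 ± 0.107 SE and its cofactor protein S (PROS1) by 0.13 ± 0.075 SE. F10, which cleaves prothrombin, read 11.08, 10.65, 11.01, 11.05 and 11.05 in the control pools and 10.98, 10.72, 10.86, 10.83 and 10.98 in the CLA pools. Control pool 2 stood below all other pools, and the other 4 control pools lay above every CLA pool. The difference was -0.09 ± 0.094 SE over all pools (limma, Benjamini-Hochberg adjusted p = 0.813) and -0.17 without control pool 2, where the unadjusted limma p fell under 0.05. GGCX, the carboxylase of these factors, and VKORC1, which recycles vitamin K, differed by -0.02 ± 0.084 SE and 0.02 ± 0.059 SE. F5, the cofactor of F10, differed by 0.06 ± 0.088 SE.

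Of the serpins, which trap proteases, antithrombin (SERPINC1) differed by 0.02 ± 0.060 SE, heparin cofactor II (SERPIND1) by -0.01 ± 0.091 SE and antiplasmin (SERPINF2) by 0.11 ± 0.078 SE. SERPING1, the C1 inhibitor, acts on C1R and C1S and also on the contact proteases. At its brightest probe set it read 13.71, 13.61, 13.78, 13.75 and 13.75 in the control pools and 13.85, 13.81, 13.79, 13.79 and 13.87 in the CLA pools. All CLA pools lay above all control pools, the 1 member of 34 whose groups did not overlap, where 2.17% of all genes did not overlap. The lowest CLA pools, at 13.79, lay just above the highest control pool, at 13.78, which is the last decimal of the deposited values. The difference was 0.10 ± 0.061 SE, or 1.07-fold (limma, Benjamini-Hochberg adjusted p = 0.658). Plasminogen (PLG), the zymogen of the fibrin-cutting protease, differed by 0.13 ± 0.084 SE, and vitronectin (VTN), which binds both terminal complement complexes and a plasmin system inhibitor, by -0.01 ± 0.058 SE. When CLA pool 2 was left out SERPINF2 differed by 0.162, and when CLA pool 5 was left out PROS1 differed by 0.175, each then with an unadjusted limma p under 0.05.

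**Figure D3:**
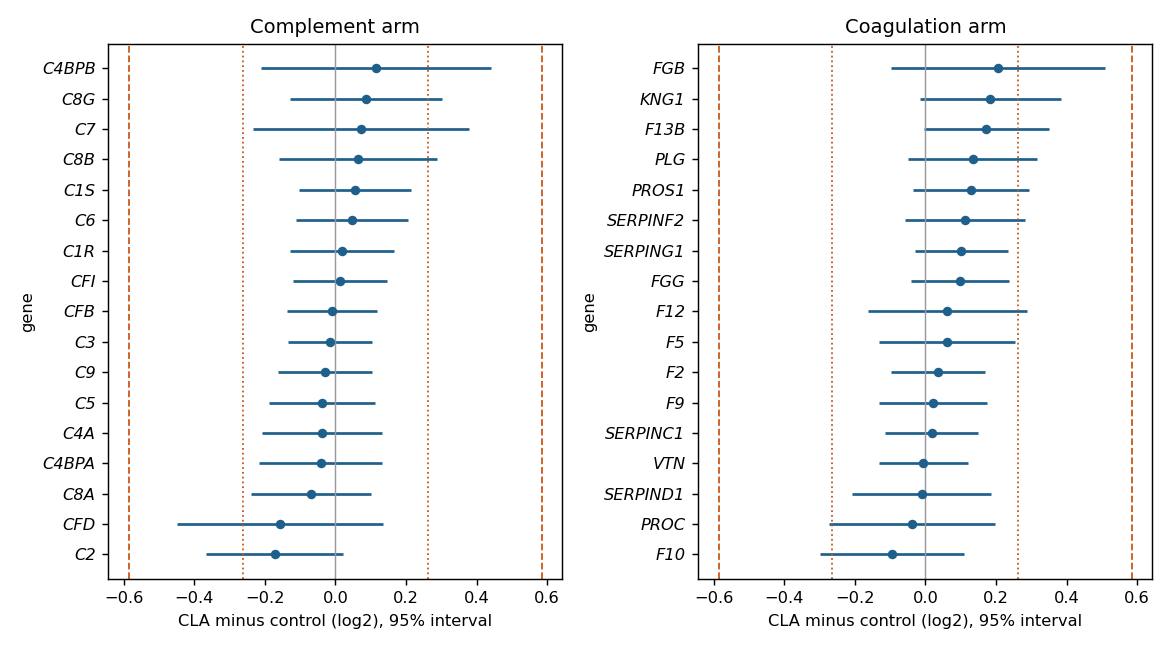
Difference of each of the 34 genes, CLA minus control on the log2 scale (point), with its unadjusted 95% interval from limma (line). Dotted lines mark 1.2-fold and dashed lines 1.5-fold in both directions; no interval reaches 1.5-fold, and 19 of 34 stay within 1.2-fold.

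The spread between pools was small enough to bound these differences of array signal. The unadjusted 95% interval of limma stayed within 1.5-fold in both directions for all 34 genes, as it did for 95.0% of all genes, and within 1.2-fold for 19 of 34, as it did for 39.4% of all genes. Within 1.2-fold lay 11 of the 17 complement genes and 8 of the 17 coagulation genes. The narrowest interval was that of C3, from -0.13 to 0.11, where the signal was the highest of the array. CFB, VTN, FGG, F2 and SERPINC1 were also bright, with control means from 14.02 to 14.20. Whether their signal still followed the amount of RNA was not tested either. The widest was that of C4BPB, from -0.21 to 0.44, followed by C7, from -0.23 to 0.38, and FGB, from -0.10 to 0.51. For the most even genes the SE rests largely on the spread that limma borrows from other probe sets, since C3 had an SD of 0.014 in the control and 0.015 in the CLA pools (n = 5 each).

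**Figure D4:**
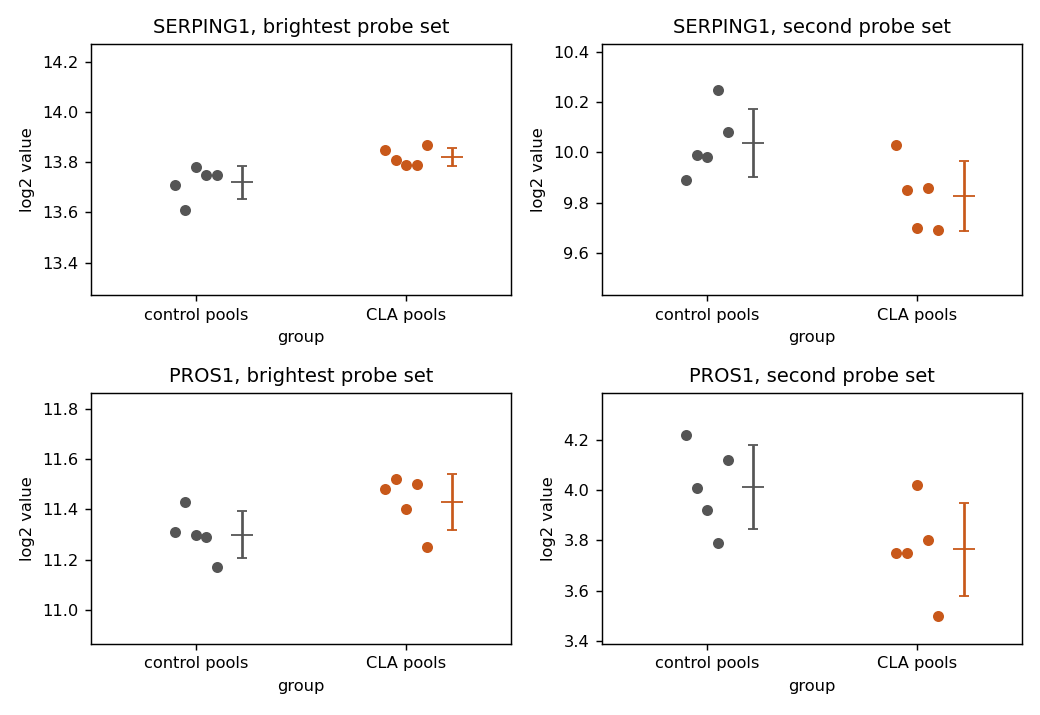
Log2 values of both probe sets of SERPING1 (top) and PROS1 (bottom) in the 5 control pools and 5 CLA pools, with the mean and SD of each group beside the points; each panel spans 1 log2 unit. The brightest set of each gene is higher in the CLA pools and the second set lower.

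Several genes were read by more than 1 probe set, which gave 14 pairs of a brightest and another set. In 4 of these the sets differed in sign, and 2 of the other sets had an unadjusted limma p under 0.05, those of SERPING1 and PROS1, both against the direction of the brightest set. The second SERPING1 set read 9.89, 9.99, 9.98, 10.25 and 10.08 in the control pools and 10.03, 9.85, 9.70, 9.86 and 9.69 in the CLA pools. CLA pool 1 lay among the control pools and the other 4 CLA pools below all of them. The second set differed by -0.21 ± 0.089 SE (limma, Benjamini-Hochberg adjusted p = 0.530), so the upward difference of SERPING1 was not shared by its sets, and their mean differed by -0.06. PROS1 at its brightest set read 11.31, 11.43, 11.30, 11.29 and 11.17 in the control pools and 11.48, 11.52, 11.40, 11.50 and 11.25 in the CLA pools, where CLA pools 3 and 5 lay among the control pools. The second PROS1 set, a dim one, read 4.22, 4.01, 3.92, 3.79 and 4.12 in the control pools and 3.75, 3.75, 4.02, 3.80 and 3.50 in the CLA pools, with groups that overlap through CLA pools 3 and 4. Its difference was -0.25 ± 0.106 SE (limma, Benjamini-Hochberg adjusted p = 0.538), and the mean of both PROS1 sets differed by -0.06. Over all probe sets on the array 8.89% had an unadjusted p under 0.05. The others of opposite sign were C8B, described next, and F9, whose dimmest set differed by -0.16 ± 0.151 SE at a control mean of 4.07, while the set between differed by 0.05 ± 0.117 SE.

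**Figure D5:**
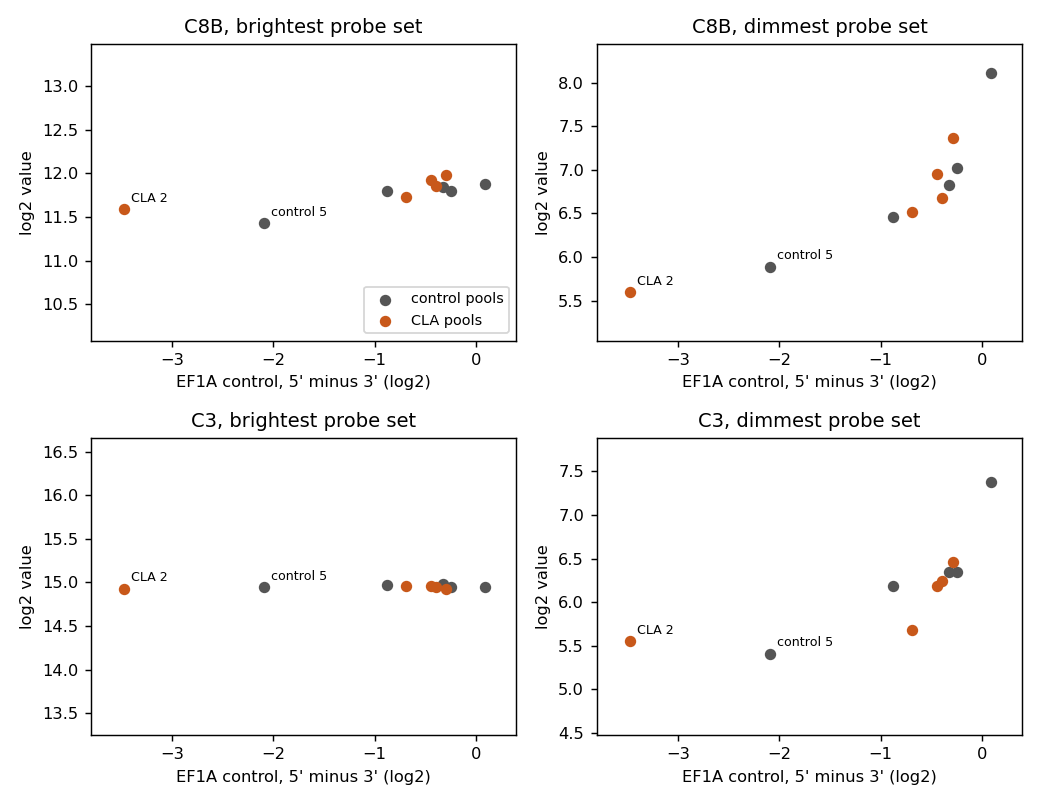
Log2 values of the brightest (left) and the dimmest (right) probe set of C8B and C3 in each pool, against the 5' minus 3' difference of the EF1A control probe sets in the same pool (log2); grey, control pools, orange, CLA pools. The dimmest sets are lowest in CLA pool 2 and control pool 5 and highest in control pool 2; all panels have the same height in log2 units.

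C8B and C3 were also read by dim probe sets that varied far more than the bright ones. The dim C8B set read 6.46, 8.11, 6.83, 7.02 and 5.89 in the control pools and 7.37, 5.60, 6.95, 6.68 and 6.52 in the CLA pools, a difference of -0.24 ± 0.385 SE. The dim C3 set read 6.19, 7.38, 6.35, 6.35 and 5.41 in the control pools and 6.46, 5.55, 6.19, 6.24 and 5.68 in the CLA pools, a difference of -0.31 ± 0.296 SE. In both sets control pool 2 was the highest, and control pool 5 and CLA pool 2 were the 2 lowest. The array also carries control probe sets for the 5' and the 3' part of some transcripts, a common check of RNA integrity and of labelling. For EF1A, a translation elongation factor, the 5' minus 3' difference was -0.88, 0.09, -0.32, -0.25 and -2.09 in the control pools and -0.29, -3.47, -0.44, -0.39 and -0.69 in the CLA pools. Again control pool 2 was the highest, and control pool 5 and CLA pool 2 were the lowest.

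Over the 10 pools the dim C8B set followed the EF1A difference with Pearson's r of 0.852 (permutation p = 0.00041, Benjamini-Hochberg adjusted 0.053) and Spearman's rho of 0.952 (permutation p = 5e-05, adjusted 0.0072). The dim C3 set had an r of 0.736 (permutation p = 0.024, adjusted 0.24) and a rho of 0.945 (permutation p = 0.00013, adjusted 0.0094). Without CLA pool 2 and control pool 5, the pools farthest from the median EF1A difference, r was 0.883 for C8B and 0.815 for C3. These are 2 of 144 relations, of 48 probe sets to the differences of EF1A, GAPDH and cyclophilin, over which the values were adjusted, and they were looked at after the dim sets had been seen to vary together. The brightest sets gave an r of 0.792 for C8B and 0.410 for C3, and 0.489 and -0.419 without those 2 pools. With EF1A the brightest CFI set had an r of 0.713 (permutation p = 0.018, adjusted 0.22), and 0.334 without those pools. C4BPB had an r of 0.624 (permutation p = 0.066, adjusted 0.32), and -0.486 without them. The brightest C6 set ran the other way, with an r of -0.583 (permutation p = 0.089, adjusted 0.38), and -0.416 without them. For GAPDH CLA pool 2 read -2.17, in a range of -2.71 to -1.71, and only control pool 2 was higher. For cyclophilin it read -2.05, the highest value, shared with control pool 2. Unlike EF1A, these 2 controls did not place CLA pool 2 among the lowest. With GAPDH the dim C2 set had an r of 0.923 (permutation p = 0.0011, adjusted 0.053). Some brightest sets were also related to the control probes, in either direction. C1R had an r of 0.894 with GAPDH (permutation p = 0.001, adjusted 0.053). With cyclophilin PROS1 had an r of 0.822 (permutation p = 0.0055, adjusted 0.11), and F10 ran the other way, with an r of -0.853 (permutation p = 0.0019, adjusted 0.07). An r above 0.8 was found for 2 of the 48 member sets with EF1A, against 1.74% of all probe sets. It was found for 4 with GAPDH, against 0.862%, and for 1 with cyclophilin, against 0.758%. The 2 with EF1A were the dim C8B set and the dimmest F9 set, not the dim C3 set. That F9 set had an r of 0.815, which fell to 0.386 once the 2 pools farthest in EF1A were dropped. With GAPDH the dim C3 set had an r of 0.815, above its r with EF1A, but a lower rho, of 0.543. Dropping control pools 2 and 5 left an r of 0.339 there. None of the 3 control differences separated the groups (EF1A -0.37, exact permutation p = 0.627; GAPDH 0.01, exact permutation p = 0.984; cyclophilin 0.16, exact permutation p = 0.262; two-sided, n = 5 pools per group). In a fit without CLA pool 2 and control pool 5 the count of members with an unadjusted limma p under 0.05 was also 0 of 34. That fit was chosen after seeing the data, has fewer pools, and its share over all genes was not counted. Its count therefore does not show whether these 2 pools bear on the differences.

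Many of these genes are neighbours, by gene order in the RefSeq table of assembly ARS-UCD2.0, and neighbours did not always share a direction. C1R and C1S are adjacent and differed by 0.02 and 0.06. CFB and C2, adjacent as well, differed by -0.01 and -0.17, C8B and C8A by 0.06 and -0.07, and C4BPB and C4BPA by 0.12 and -0.04. FGG and FGB, with FGA between them, differed by 0.10 and 0.21, and C6 and C7, with 1 protein-coding gene between them, by 0.05 and 0.07.

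Of 35 other genes of complement 21 were measured, 12 higher and 8 lower with a median of 0.002, and 1 had an unadjusted limma p under 0.05, where 8.5% of all genes had one. That was CR2, the receptor of C3d on B cells, with 0.27 ± 0.085 SE (limma, Benjamini-Hochberg adjusted p = 0.418), from a low control mean of 4.43. Its other probe set differed by -0.28 ± 0.106 SE. Properdin (CFP), which steadies the alternative convertase and comes from white blood cells, differed by -0.21 ± 0.120 SE, and the lectin FCN1 by -0.24 ± 0.158 SE. C1QA, C1QB and C1QC, the recognition chains of C1 that macrophages make, differed by -0.03 ± 0.139 SE, -0.14 ± 0.131 SE and 0.00 ± 0.156 SE. MBL2, a mannose-binding lectin of the liver, differed by 0.16 ± 0.142 SE.

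Of 37 other genes of coagulation 28 were measured, 12 higher and 16 lower with a median of -0.042, and 3 had an unadjusted limma p under 0.05, a share near the 8.5% of all genes. PLAT, the tissue plasminogen activator, read 5.88, 5.42, 5.73, 5.90 and 5.73 in the control pools and 5.89, 5.99, 6.55, 6.48 and 5.87 in the CLA pools. CLA pools 3 and 4 stood apart from the rest. PLAT differed by 0.42 ± 0.149 SE (limma, Benjamini-Hochberg adjusted p = 0.454). TFPI2, an inhibitor of plasmin and other proteases, differed by 0.28 ± 0.118 SE (adjusted 0.530), and HABP2, a protease that can activate factor VII, by -0.16 ± 0.073 SE (adjusted 0.558).

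Of 21 transcription factors and receptors that act on plasma protein genes of the liver 13 were measured, 8 higher and 5 lower with a median of 0.046. NR3C1, the glucocorticoid receptor, was the 1 with an unadjusted limma p under 0.05, where 8.5% of all genes had one. It differed by 0.62 ± 0.123 SE (limma, Benjamini-Hochberg adjusted p = 0.272). Its other probe set, with a low control mean of 2.87, differed by 0.23 ± 0.108 SE. PPARA, a receptor of fatty acids, differed by -0.27 ± 0.168 SE at its brightest and -0.01 ± 0.106 SE at its other set, and the oestrogen receptor ESR1 by -0.14 ± 0.110 SE. The hepatocyte factor HNF4A differed by 0.06 ± 0.192 SE, and CEBPB and STAT3, which carry the interleukin signals of the acute phase, by -0.12 ± 0.177 SE and -0.05 ± 0.130 SE. The other CEBPB set differed by 0.02 ± 0.133 SE, and the other STAT3 set by -0.18 ± 0.224 SE.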

How the data were processed

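The authors deposited 1 log2 expression value per probe set and array, and per the submitters' processing notes they used Affymetrix Expression Console 1.1 and RMA, with order and settings not given in the sources used here. Each array held the pooled RNA of 4 cows. Of 24128 probe sets 112 manufacturer controls were left out of the fit, and 24016 were fitted as deposited, CLA minus control, in limma 3.58.1 (lmFit, eBayes; R 4.3.3), with Benjamini-Hochberg adjustment over all of them. The number of arrays limits the precision. The platform annotation gave 1 symbol to 13292 probe sets. The identifiers of the 34 measured genes were all found in the RefSeq table. Lists and genes were chosen with earlier results of these data known, so no test over a list is given.

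Values in every pool are given for members with an unadjusted p under 0.05, groups that do not overlap, 1 of the 3 largest differences of their arm, the highest or lowest signal of their arm, or a pool apart from the others. Second probe sets of members are given where they differ in sign or by over 0.2, and those of C2, C3, KNG1 and FGB beside their values. Of the other lists, the 3 genes of smallest p are named. C1QA, C1QB, C1QC, MBL2, F13A1, GGCX, VKORC1, HNF4A, CEBPB and STAT3 are given outside this rule. Correlations used 100000 permutations in scipy 1.17.1. The fit was also tested on simulated data. Alternatives were single pools left out, the pool number as a block, other normalizations, array weights, other variance models, a filter on dim probe sets, another false discovery rate and all probe sets of a gene averaged. The fit without CLA pool 2 and control pool 5 was chosen after seeing the data.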

Additional observations from a re-analysis of the deposited data

Results flagged for a closer look

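Of 68 groups of 5 pools, 1 for each member and group, 3 held a pool far from the other 4, by a rule that flags about 1 group in 20 by chance. C8B in control pool 5 read 11.43, where the other control pools lay between 11.80 and 11.88. CFI in control pool 5 read 13.22 against 13.31 to 13.33. F10 in control pool 2 read 10.65 against 11.01 to 11.08. Without the pool concerned the difference was -0.02 for C8B, -0.01 for CFI and -0.17 for F10.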

How the results depend on the processing

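With an adjusted limma p under 0.05 there were 0 probe sets as deposited and in every setting tried except 1, without CLA pool 2 and control pool 4, where there was 1. The count of members with an unadjusted limma p under 0.05, 0 as deposited, was 1 after quantile normalization, 1 after cyclic loess normalization, 1 without CLA pool 2 and control pool 4, and 2 each with array medians subtracted, with trend and robust eBayes, with unmoderated variance and averaging all probe sets of a gene. Leaving out single pools gave 0 to 3. Of all genes 8.5% fell under that mark as deposited and 9.24% with unmoderated variance. The shares of all genes in the other settings were not counted, so these counts are not read as a result about the members. Of 374 member values under other settings 338 kept direction and side of the threshold, 25 changed sign and 11 came under an unadjusted p of 0.05.

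The differences that changed sign were mostly small. Under quantile normalization they were C1R -0.001, CFI -0.015, F2 -0.025 and SERPINC1 -0.028. With array medians subtracted they were C3 0.017, C9 0.001, CFB 0.021, SERPIND1 0.021 and VTN 0.025. That setting adds 0.031 to every gene, so these 5 changes of sign follow from it. Under cyclic loess they were C1R -0.025, CFI -0.029, F2 -0.007, F9 -0.019 and SERPINC1 -0.025. Without CLA pool 2 and control pool 5 they were C1R -0.020, F2 -0.003 and SERPIND1 0.035. Without CLA pool 2 and control pool 4 they were SERPIND1 0.100, PROC 0.068 and VTN 0.010. With array weights SERPIND1 was 0.039. Averaging all probe sets of a gene, they were C8B -0.087, F9 -0.029, SERPING1 -0.055 and PROS1 -0.059. Leaving out single pools moved C1R between -0.017 and 0.049, C4A between -0.077 and 0.011, C4BPB between -0.013 and 0.194, C7 between -0.042 and 0.136, C8B between -0.017 and 0.120, CFB between -0.028 and 0.007, CFI between -0.008 and 0.032, F9 between -0.011 and 0.059, F12 between -0.009 and 0.116, SERPIND1 between -0.051 and 0.056, PROC between -0.108 and 0.018 and VTN between -0.017 and 0.014. The cause of the other changes was not tested.

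The labels do not say whether pools of the same number were matched. After group means were removed, same-numbered pools correlated between -0.0855 and 0.0925, and 2 of 5 control pools correlated best with their own number. With 5 pools per group these values cannot exclude a pairing. With the pool number as a replicate block 0 probe sets and 0 members passed, and the medians were -0.010 and 0.062. The signal of C3 at the top of the range limits what can be read there.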
